A study of Mus musculus with 9 samples.

Results

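Motile cilia genes were taken from the deposited table by name: protein-coding genes whose symbols begin with Cfap, Dnah, Dnai, Rsph or Drc and a number, together with Foxj1, Hydin, Ccdc39 and Ccdc40. Of 57180 genes in the table, 81 carried such a name. The 75 whose mean over the 9 libraries reached 10 normalized counts are described here. A normalized count is the number of reads of a gene divided by 1 size factor per library. The choice used the name and the overall mean, not a difference between groups. Just inside the limit lay Cfap99, with a mean of 11.5 normalized counts, and Cfap73, with 12.6. Just outside lay Dnah17, with 8.86, and Rsph14, with 7.73, and the other 4 genes left out were Rsph6a, Cfap107, Cfap97d1 and Cfap141.

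The RNA came from whole hippocampus of 11-day-old mice of the C57BL6 strain. In 4 mice (cKO) Slc38a3, the gene of the glutamine transporter SNAT3, had been deleted selectively in endothelial cells, and 5 mice were wild type (WT). Males numbered 3 of the 4 cKO mice and 1 of the 5 WT mice. The labels name neither the Cre line nor any floxed allele that the WT mice may carry.

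Motile cilia beat, and ependymal cells carry tufts of them on the walls of the brain ventricles, where they move cerebrospinal fluid. The core of such a cilium, the axoneme, is a ring of microtubule doublets around a central pair. Outer and inner dynein arms are the motors that slide the doublets, radial spokes and the central pair apparatus set the rhythm, the nexin-dynein regulatory complex links neighbouring doublets, and inner proteins line the tubules. Foxj1 is the forkhead transcription factor that switches on this gene programme, together with RFX factors, which bind a promoter element called the X-box.

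The promoters of the 75 genes are shown first. Whether promoter sequence bears on the levels of these genes across libraries was not tested. RefSeq (GRCm38.p6) windows from 250 bases before to 50 bases after the start were matched to 61 of the 75 genes, 13 of them by an older symbol. The letters searched were GTTNCC, a gap of 0 to 3 bases and GGNAAC, with at most 1 mismatch. This motif reads the same on both strands. It occurred in 17 of the 61 genes (27.9%), against 1662 of all 27025 genes with a window (6.15%). With no mismatch it occurred in 3 of the 61 (4.92%), namely Cfap90, Cfap20dc and Cfap298, against 253 genes (0.936%). In 11 of the 17 a match began within the last 40 bases before the start. The windows below, 50 bases each from 5′ to 3′ on the strand of the gene, hold examples from different parts of the axoneme, with the matched letters in capitals.

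Hydin (central pair, chr8:110266927-110266976, plus strand): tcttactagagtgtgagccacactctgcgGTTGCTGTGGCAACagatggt
Cfap44 (inner arm tether, chr16:44394749-44394798, plus strand): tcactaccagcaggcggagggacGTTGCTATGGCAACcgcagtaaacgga
Dnai1 (outer arm, chr4:41569744-41569793, plus strand): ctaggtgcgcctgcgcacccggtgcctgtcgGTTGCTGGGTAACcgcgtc
Dnai2 (outer arm, chr11:114727367-114727416, plus strand): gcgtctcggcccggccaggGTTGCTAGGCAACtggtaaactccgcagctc
Cfap206 (radial spoke, chr4:34730207-34730256, minus strand): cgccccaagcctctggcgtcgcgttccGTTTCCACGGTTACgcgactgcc
Drc1 (nexin link, chr5:30281343-30281392, plus strand): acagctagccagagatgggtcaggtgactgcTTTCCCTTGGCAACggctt
Cfap45 (inner protein, chr1:172521080-172521129, plus strand): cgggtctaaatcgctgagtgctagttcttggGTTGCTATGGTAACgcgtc
Cfap90 (inner protein, chr13:68597389-68597438, plus strand): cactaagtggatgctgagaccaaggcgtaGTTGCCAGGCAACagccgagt

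In Hydin the match began 21 bases before the start, in Cfap44 27, in Dnai1 19, in Dnai2 33, in Cfap206 23, in Cfap45 19 and in Cfap90 21. Cfap298, which is needed for dynein arm assembly, held 2 matches with no mismatch, beginning 188 and 69 bases before its start. The forkhead letters GTAAACA or TGTTTAC, searched on both strands, occurred in 2 of the 61 genes (3.28%), Cfap20 and Cfap43, against 4.05% of all genes with a window. These are matches of letters, and binding was not measured.

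The 9 libraries held 30803135 to 34034530 reads. The targeted gene was lower in every cKO library: Slc38a3 had 308 to 405 normalized counts in cKO and 1804 to 3514 in WT. Of 17036 genes with a mean of at least 10, 59 (0.346%) passed an adjusted p of 0.05 for cKO against WT, 21 of them higher and 38 lower. That test was limma-trend on log2(normalized count + 1) with sex as a term and Benjamini-Hochberg adjustment over all genes tested. Fold changes below are on this scale, which understates changes of low genes.

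The label of these genes was set against 9 markers of ependymal cells. Foxj1 is one of them and had to reach a mean of 10 normalized counts by the rule, so it checks nothing here. Of the other 8, 7 reached that mean, and Mia was listed at 0 in 4 libraries and reached 4.71. Sntn only just reached it, with a mean of 10.9. It had 25.4 in WT replicate 3 and 5.97 to 13.0 in the other libraries. Ccdc153, a gene of multiciliated cells, had 92.5, 118, 51.3 and 131 normalized counts in cKO replicates 1 to 4 and 104, 124.6, 212, 105 and 69.9 in WT replicates 1 to 5. Tmem212 had 41.8, 59.7, 32.9 and 56.6 in cKO and 60.8, 69.6, 83.1, 40.2 and 33.3 in WT. Both genes were highest in WT replicate 3 and lowest in cKO replicate 3, and the genotypes overlapped. Dynlrb2 and Fam183b had the same highest and lowest libraries. Rarres2, Enkur and Sntn were also highest in WT replicate 3, but lowest in WT replicate 4, cKO replicate 2 and cKO replicate 1. The cKO mean lay above the WT mean in Rarres2 (153 against 144) and Enkur (121 against 117). It lay below in Ccdc153, Tmem212, Dynlrb2, Fam183b and Sntn. Per kilobase of merged exons the level over the 9 libraries was 147 normalized counts for Foxj1, 74.2 for Tmem212 and 55.1 for Ccdc153. On the same scale it was 6708 for the astrocytic glutamate transporter Slc1a2 and 5080 for the neuronal gene Snap25. In bulk tissue fewer cells of a type and less RNA per cell cannot be told apart. Not all of the 75 followed these markers: Cfap36, Cfap418, Cfap20 and Cfap97 varied little between libraries in which the ependymal markers varied.

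No motile cilia gene passed the test for cKO against WT. Of 75, 0 had an adjusted p under 0.05 in limma, against 0.346% of all genes tested. At an unadjusted p under 0.05 there were 8 (10.7%), 7 higher and 1 lower in cKO, against 11.3% of all genes. edgeR and DESeq2 on the recovered reads also called 0 of 75, with 7 and 5 at an unadjusted p under 0.05. All 4 cKO libraries lay above all 5 WT libraries in 1 gene, Drc1, and below them in none, which is 1.33% of the 75 against 6.29% of all genes whose groups did not overlap in either direction. The fitted log2 difference was above 0 in 47 genes (62.7%, against 48.8% of all genes tested) and below 0 in 28. Its median was 0.04, against -0.0034 for all genes tested. The standard error of a motile cilia gene was larger than that of a typical gene, with a median of 0.19 against 0.08 on the log2 scale, so the intervals leave room for differences in either direction for most of them.

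**Figure D1:**
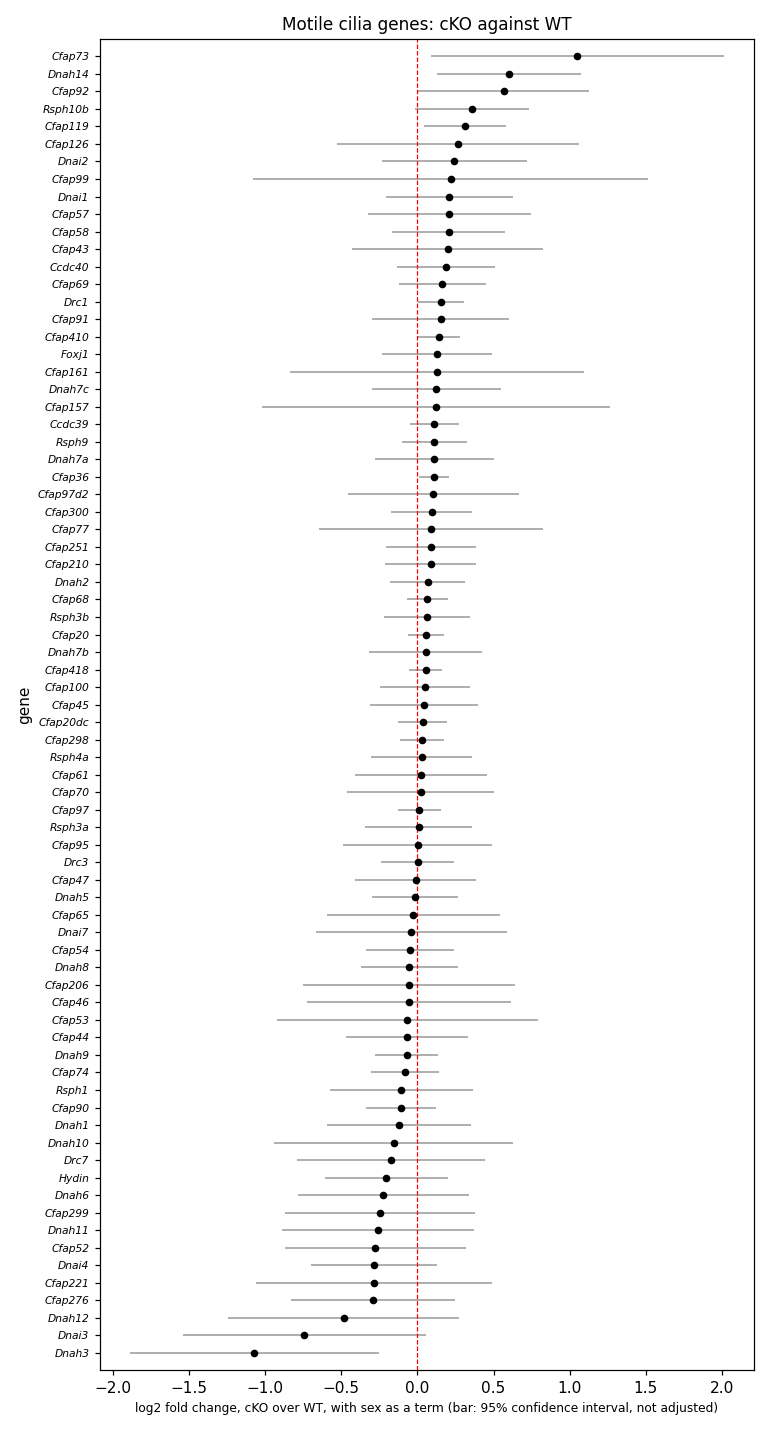
Fitted log2 fold change of each of the 75 motile cilia genes, cKO over WT with sex as a term (horizontal axis), ordered by its value; points are estimates and bars unadjusted 95% confidence intervals. 47 estimates lie above 0 and 28 below, and the lowest and highest are Dnah3 at -1.07 and Cfap73 at 1.05.

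Foxj1 (ENSMUSG00000034227, chromosome 11, 116221529 to 116226225 in GRCm39) stood at the head of the programme. It had 372, 421, 312 and 477 normalized counts in cKO replicates 1 to 4, a mean of 395 ± 70.5 (SD, n = 4). In WT replicates 1 to 5 it had 355, 404, 485, 359 and 287, a mean of 378 ± 72.9 (SD, n = 5). WT replicate 3 and cKO replicate 4 were highest and WT replicate 5 and cKO replicate 3 lowest, and the cKO range lay inside the WT range. The log2 difference in limma was 0.13 (SE 0.17, 95% interval -0.23 to 0.49, adjusted p = 0.803), and 0.06 without cKO replicate 4. Without the sex term, the difference of group means was 0.07, with a two-sided exact permutation p of 0.698 over all divisions of the animals into 4 and 5, which can reach 0.00794 at the smallest.

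Of the 6 outer dynein arm genes, which set beat frequency, none passed the limma test, and 2 estimates were above 0. Dnah9 and Dnah5 encode the pair of heavy chains of the outer arm in mammalian cilia. Dnah9 had 508, 552, 581 and 704 normalized counts in cKO and 608, 593, 637, 576 and 569 in WT. Dnah5, whose loss causes primary ciliary dyskinesia and hydrocephalus, had 242, 214, 265 and 262 in cKO and 228, 204, 289, 225 and 269 in WT. The WT values of Dnah9 and the cKO values of Dnah5 lay within the range of the other genotype. Per kilobase of merged exons, with lengths from GENCODE M21, the level over the 9 libraries was 37.1 normalized counts for Dnah9, 15.6 for Dnah5 and 4.72 for Dnah11, a partner that replaces Dnah9 in part of the cilium. The heavy chains known from sperm were lower still on that scale, with 3.10 for Dnah8 and 0.55 for Dnah17, which lies outside the limit on the mean.

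The intermediate chains Dnai1 and Dnai2 anchor the outer arm. Dnai1 had 78.6, 85.2, 91.9 and 87.7 normalized counts in cKO (mean 85.8 ± 5.59, SD, n = 4) and 76.8, 85.2, 91.0, 61.3 and 53.8 in WT (mean 73.6 ± 15.7, SD, n = 5). Dnai2 had 101.4, 100.9, 70.6 and 135 in cKO and 91.8, 86.2, 97.8, 70.3 and 62.4 in WT. WT replicates 4 and 5 held the lowest values of both genes, and the genotypes overlapped. Dnai1 shares its span with Enho, a more abundant gene with a mean of 911 normalized counts.

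The 18 inner dynein arm genes, which shape the bend of the cilium, were the most uneven over libraries among the named roles with at least 5 genes, with a median coefficient of variation (SD over mean of the 9 libraries) of 24.9%. Their means ran from 12.6 to 284 normalized counts, against 106 to 1117 for the nexin-dynein regulatory complex and ruler. Counting error weighs more on low genes. None passed the limma test for genotype, with 9 estimates above 0 and 9 below. The 3 with the highest mean were Dnah2, an inner arm heavy chain, Cfap44, part of the tether that holds an inner arm motor to its doublet, and Dnai4, a protein needed for dynein arms in motile cilia. Dnah2 had 331, 254, 278 and 332 normalized counts in cKO and 260, 253, 302, 293 and 255 in WT. Cfap44 had 245, 206, 183 and 363 in cKO and 241, 254, 254, 234 and 204 in WT. Its cKO libraries were spread more widely than its WT libraries, with an SD of 80.2 in cKO and 20.6 in WT, and cKO replicate 4 was the highest of all.

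Dnah3 (ENSMUSG00000052273, chromosome 7, 119521893 to 119694503 in GRCm39), an inner arm heavy chain, gave the smallest p of all 75 genes. It had 22.9, 18.6, 11.6 and 37.7 normalized counts in cKO replicates 1 to 4, a mean of 22.7 ± 11.0 (SD, n = 4). In WT replicates 1 to 5 it had 48.9, 41.5, 62.6, 25.1 and 33.3, a mean of 42.3 ± 14.4 (SD, n = 5). Only cKO replicate 4 reached into the WT range, where it exceeded WT replicates 4 and 5. The log2 difference was -1.07 (SE 0.38, 95% interval -1.89 to -0.25), with an unadjusted p of 0.0142 and an adjusted p of 0.309 in limma. The span of Dnah3 overlaps that of Lyrm1, which had a mean of 208 normalized counts.

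The other inner arm genes with the lowest estimates were Dnai3, Dnai4 and Dnah12. Dnai3, an intermediate chain, had 18.9, 16.7, 15.5 and 41.5 normalized counts in cKO and 32.9, 32.2, 56.7, 31.1 and 22.6 in WT, with a log2 difference of -0.74 (SE 0.37, adjusted p = 0.470 in limma). Here cKO replicates 1 to 3 lay below every WT library and cKO replicate 4 above all but WT replicate 3. Dnai4 had 203, 168, 147 and 282 in cKO and 210, 242, 266, 255 and 199 in WT, with a log2 difference of -0.28 (SE 0.19, adjusted p = 0.610 in limma). That of Dnai4 was -0.05 without cKO replicate 2 and -0.50 without WT replicate 1, and that of Dnai3 -0.50 without cKO replicate 2. Dnah12, a heavy chain, had 51.7, 45.1, 33.9 and 104 in cKO and 75.8, 57.1, 115, 58.2 and 50.5 in WT, with a log2 difference of -0.48 (SE 0.35, adjusted p = 0.633 in limma), and -0.32 without cKO replicate 3. In all 3 genes cKO replicate 4 and WT replicate 3 were the 2 highest libraries and cKO replicate 3 the lowest.

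Dnah14 and Cfap73 were the inner arm genes with the highest estimates. Dnah14, a heavy chain, had 36.8, 50.9, 32.9 and 41.5 normalized counts in cKO and 24.9, 29.1, 35.2, 40.2 and 25.8 in WT. The log2 difference was 0.60 (SE 0.22, 95% interval 0.13 to 1.07, adjusted p = 0.323 in limma), and the genotypes overlapped. Cfap73, which with Cfap100 helps to hold inner arms in place, had 4.97, 22.5, 18.4 and 21.7 in cKO and 5.98, 9.35, 9.78, 12.1 and 8.60 in WT. Its log2 difference was 1.05 (SE 0.45, 95% interval 0.09 to 2.01, adjusted p = 0.403 in limma). For Cfap73, cKO replicates 2, 3 and 4 lay above all WT libraries and cKO replicate 1 below them all. It was the only one of the 75 with a group mean below 10, 9.15 ± 2.19 in WT (SD, n = 5), so it met the limit through its cKO libraries. Both genes overlap a more abundant gene, Lbr (mean 479) for Dnah14 and Ddx54 (mean 2148) for Cfap73.

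Other inner arm genes differed between libraries more than between genotypes. Dnah6, a heavy chain, had 141, 130, 104 and 255 normalized counts in cKO and 172, 162, 213, 166 and 117 in WT. Dnah10, whose loss affects sperm and cilia, had 73.6, 55.8, 48.4 and 96.2 in cKO and 81.8, 65.4, 116, 55.2 and 30.1 in WT. Dnah1 had 139, 121, 106 and 185 in cKO and 152, 125.7, 195, 100 and 125.8 in WT. WT replicate 3 and cKO replicate 4 were the highest libraries of all 3 genes. Dnah7a, Dnah7b and Dnah7c are near-identical copies between which the counting may have split reads. Their means were 66.6, 133 and 42.9 in cKO and 56.5, 124 and 39.1 in WT.

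**Figure D2:**
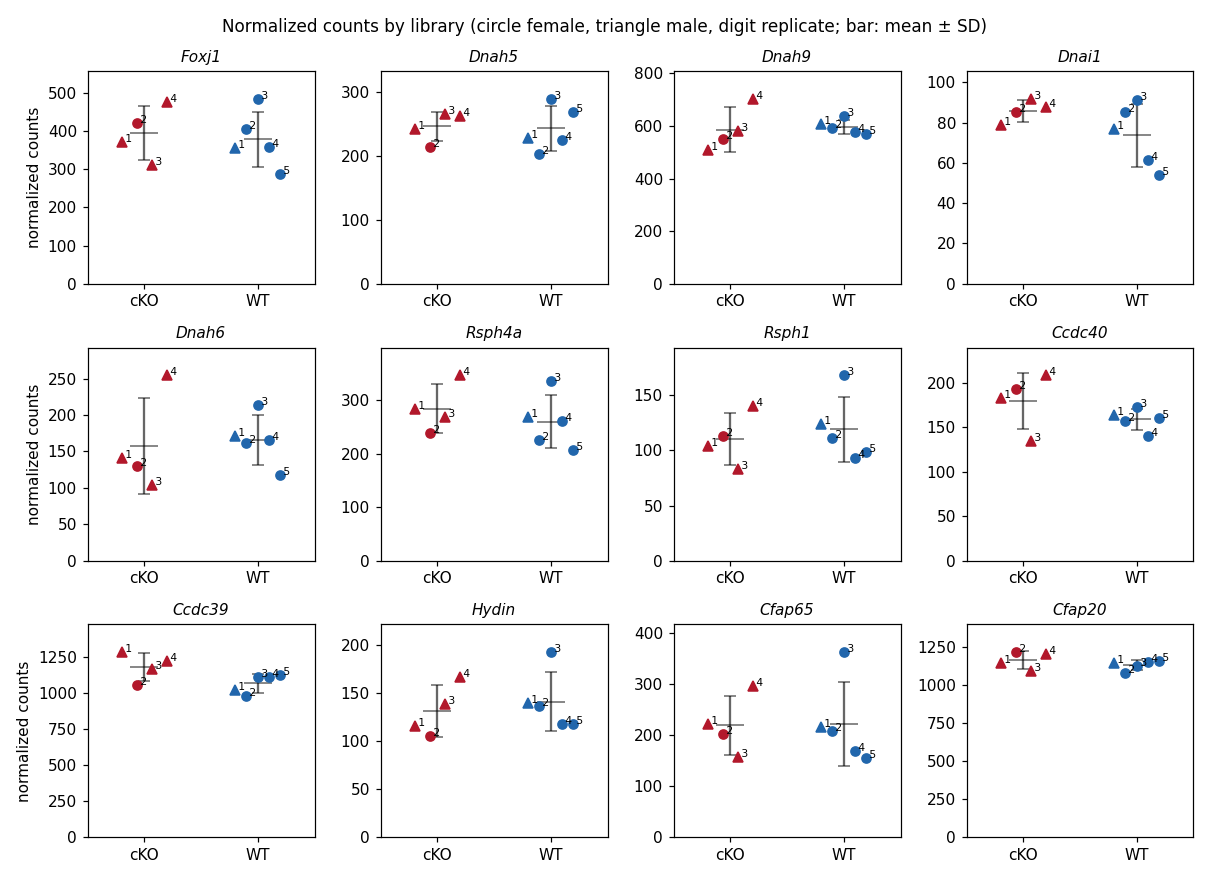
Normalized counts (vertical axis, from 0) of 12 motile cilia genes in every library by genotype; circles are females, triangles males, digits the replicate numbers, and the bar with its caps is the mean ± SD (n = 4 cKO, n = 5 WT). In every panel the genotypes overlap; Foxj1 runs from 312 to 477 in cKO and from 287 to 485 in WT.

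The 10 radial spoke genes gave 8 estimates above 0 and 2 below, and 0 passed in limma. Rsph9 and Rsph4a form the spoke head of ependymal and airway cilia, and Rsph1 belongs to the head as well. Rsph9 had 431, 528, 486 and 505 normalized counts in cKO and 478, 468, 515, 414 and 412 in WT. Rsph4a had 283, 239, 268 and 346 in cKO and 268, 225, 335, 261 and 208 in WT. Rsph1 had 104, 114, 83.2 and 141 in cKO and 124, 111, 168, 93.4 and 98.9 in WT. The genotypes overlapped in each, and WT replicate 3 or cKO replicate 4 was the highest library of Rsph4a and Rsph1.

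Rsph6a, the paralog of Rsph4a known from sperm, was far lower than Rsph4a. Its level per kilobase was 2.49 normalized counts against 74.1 for Rsph4a, and its mean over the 9 libraries was 6.21. Cfap251, part of the complex at the spoke base, averaged 310 ± 45.2 (SD, n = 4) in cKO against 274 ± 44.1 (SD, n = 5) in WT. Cfap206, also at the spoke base, had 59.7, 54.8, 33.9 and 81.1 in cKO and 42.9, 89.3, 97.8, 77.3 and 45.2 in WT. It was the most uneven spoke gene, with a highest value 2.89 times its lowest, and the one with the lowest mean, 64.7. Rsph3a and Rsph3b are near-identical copies and their separate values are uncertain.

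The nexin-dynein regulatory complex and the molecular ruler held the only gene whose genotypes did not overlap. Drc1 (ENSMUSG00000073102, chromosome 5, 30486385 to 30524039 in GRCm39), a scaffold of the complex, had 568, 551, 508 and 576 normalized counts in cKO, a mean of 551 ± 30.4 (SD, n = 4). In WT it had 506, 470, 490, 472 and 504, a mean of 489 ± 16.9 (SD, n = 5). The lowest cKO library exceeded the highest WT library by a margin smaller than either SD. The log2 difference was 0.16 (SE 0.07, 95% interval 0.0047 to 0.31), with an unadjusted p of 0.0441 and an adjusted p of 0.425 in limma.

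Ccdc39 and Ccdc40 form the ruler that spaces dyneins and spokes along the doublet. Ccdc39 had 1281, 1057, 1162 and 1220 normalized counts in cKO (mean 1180 ± 95.4, SD, n = 4) and 1017, 977, 1107, 1110 and 1125 in WT (mean 1067 ± 65.7, SD, n = 5). Its log2 difference was 0.11 (SE 0.07, adjusted p = 0.595 in limma), and without WT replicate 1, the only WT male, it was -0.03, a value that rests on 1 cKO female against 4 WT females. Ccdc40 had 183, 193, 134 and 208 in cKO and 164, 157, 173, 141 and 160 in WT, with a log2 difference of 0.19 (SE 0.15, adjusted p = 0.663 in limma), and 0.08 without cKO replicate 2. The 2 partners differed in level per kilobase, 150 normalized counts for Ccdc39 and 27.9 for Ccdc40. They also differed in spread, 8.54% against 14.2%. Ccdc39 overlaps Ttc14, which had a mean of 3622 normalized counts, and its count may hold reads of that gene. Drc3, another subunit of the complex, averaged 245 ± 29.2 (SD, n = 4) in cKO against 243 ± 15.2 (SD, n = 5) in WT.

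The 10 central pair genes gave 3 estimates above 0 and 7 below, and 0 passed in limma. Hydin (ENSMUSG00000059854, chromosome 8, 110993608 to 111336885 in GRCm39), a giant protein of the central pair whose loss causes hydrocephalus in mice, had 116, 106, 138 and 167 normalized counts in cKO. In WT it had 140, 137, 193, 118 and 118. WT replicate 3 and cKO replicate 4 were highest, and the cKO mean of 132 ± 27.0 (SD, n = 4) stood against a WT mean of 141 ± 30.5 (SD, n = 5). The log2 difference was -0.20 (SE 0.19, 95% interval -0.61 to 0.20, adjusted p = 0.717 in limma). It was -0.0060 without cKO replicate 2, the only cKO female, and -0.39 without WT replicate 1, the only WT male.

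Cfap69, Cfap74 and Cfap54, all central pair projection proteins, had the highest means of this role. Cfap69 had 515, 342, 407 and 476 normalized counts in cKO and 329, 370, 433, 347 and 367 in WT. Cfap74 averaged 316 ± 41.0 (SD, n = 4) in cKO against 307 ± 30.4 (SD, n = 5) in WT, and Cfap54 294 ± 60.1 against 278 ± 25.9. Cfap65 differed more between libraries, with 222, 203, 157 and 295 in cKO and 216, 208, 362, 170 and 155 in WT, a ratio of highest to lowest of 2.34. Cfap46 had 95.5, 97.9, 62.9 and 77.3 in cKO and 116, 67.5, 135, 54.2 and 55.9 in WT. Cfap221 was lowest in cKO replicate 4, at 7.54, and second lowest in cKO replicate 1, at 10.9, while WT replicate 1 had 21.9. Its mean was 16.7 normalized counts, where a difference of a few reads weighs heavily.

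Of the 12 genes of inner proteins of the microtubules, 8 had estimates above 0, and 0 passed in limma. Cfap20, a protein of the inner junction of the doublet, was even across animals, with 1146, 1218, 1096 and 1209 normalized counts in cKO and 1150, 1080, 1131, 1153 and 1163 in WT. Cfap68 ranged from 580 to 657 and Cfap90 from 280 to 375 over all libraries. Cfap276 had 40.8, 23.5, 26.1 and 46.2 in cKO and 35.9, 37.4, 42.1, 32.1 and 33.3 in WT, with a log2 difference of -0.29 (SE 0.25, adjusted p = 0.692 in limma). Without cKO replicate 2 this difference was 0.03, and it then rests on 3 cKO males against 1 WT male. Cfap126, Cfap161 and Cfap53 had coefficients of variation of 36.2%, 52.8% and 38.8% against 3.95% for Cfap20. Their means were 54.65, 28.9 and 16.9 normalized counts against 1149, and counting error alone is larger at low means.

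The other 13 Cfap genes had no role assigned here, and 12 of their estimates were above 0 (92.3%, against 48.8% of all genes tested). They include proteins known from other settings: Cfap298 and Cfap300 act in the cytoplasmic assembly of dynein arms, Cfap418 is known from photoreceptors, and Cfap410 from the cilium base. Cfap36, which binds the small GTPase ARL3, was the most abundant of the 75 per kilobase. It had 2737, 3006, 2817 and 2984 normalized counts in cKO and 2592, 2826, 2901, 2899 and 2722 in WT, with a log2 difference of 0.11 (SE 0.05, 95% interval 0.01 to 0.21, adjusted p = 0.397 in limma). The next in order per kilobase were Cfap418 with 395, Cfap298 with 391, Rsph9 with 294 and Cfap20 with 258, against 1032 for Cfap36. Cfap418 and Cfap298 differ by less than the spread between libraries. Over all libraries Cfap418 ranged from 902 to 1002 normalized counts and Cfap97 from 820 to 969, without a gap between the genotypes.

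An unadjusted p under 0.05 in limma was reached by 4 of these 13, Cfap36, Cfap119, Cfap410 and Cfap92, against 11.3% of all genes tested. Cfap410 had 826, 823, 834 and 724 normalized counts in cKO and 711, 739, 781, 732 and 752 in WT, with a log2 difference of 0.14 (SE 0.06, adjusted p = 0.423 in limma). Its cKO replicates 1 to 3 lay above all WT libraries and cKO replicate 4 within them. Cfap119 had 162, 159, 134 and 158 in cKO and 120, 129, 141, 138 and 113 in WT, with a log2 difference of 0.31 (SE 0.12, adjusted p = 0.368 in limma). Here cKO replicate 3 lay inside the WT range and the other 3 cKO libraries above it. Cfap119 overlaps Phkg2, which had a mean of 1381 normalized counts. Across the 75 genes, 25 overlap another gene with a mean of at least 10. The strand setting of the counting was not given in the labels, so reads of such pairs may be mixed.

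The motile cilia genes were high and low in particular animals of both genotypes. WT replicate 3, a female, held the highest value of 28 of the 75 genes (37.3%), and cKO replicate 4, a male, that of 22 (29.3%). Of all genes tested, 9.62% were highest in WT replicate 3 and 9.17% in cKO replicate 4. The lowest value lay in cKO replicate 3, a male, for 23 genes and in WT replicate 5, a female, for 20. Among all genes tested, 11.0% were lowest in cKO replicate 3 and 10.8% in WT replicate 5. The median ratio of a gene's value to its own mean was 1.18 in cKO replicate 4 and 1.14 in WT replicate 3. It was 0.933 in cKO replicate 3 and 0.859 in WT replicate 5, and 0.952 to 0.997 in the other 5 libraries. For all genes tested it lay between 0.996 and 0.999 in every library. These libraries were picked out after their values were seen, so the counts are a description.

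**Figure D3:**
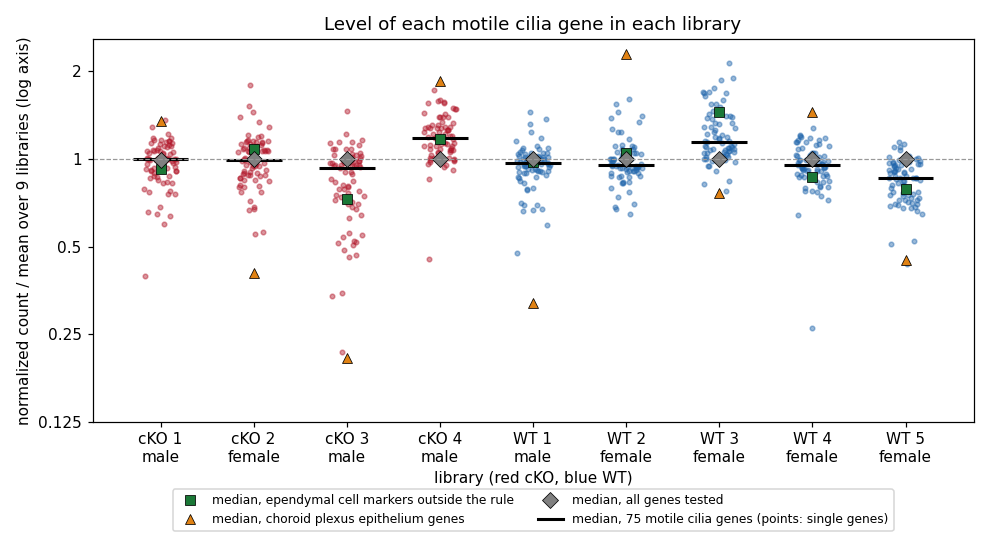
Value of each motile cilia gene divided by its mean over the 9 libraries (vertical log axis) in each library; points are single genes, black bars their median, and the green, orange and grey symbols the median of ependymal markers outside the rule, choroid plexus genes and all genes tested. The black bars are highest in cKO replicate 4 (1.18) and WT replicate 3 (1.14) and lowest in WT replicate 5 (0.859), whereas the choroid plexus genes peak in WT replicate 2 (2.29).

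Roles differed in how far they showed this. Inner dynein arm genes had their highest value in WT replicate 3 in 10 of 18 cases and in cKO replicate 4 in 6. Of the radial spoke genes, 9 of 10 lay above their own mean in WT replicate 3 and 9 of 10 in cKO replicate 4. For central pair genes these counts were 9 and 8 of 10, and for outer arm genes 5 and 6 of 6. The 5 genes of the nexin-dynein regulatory complex and the ruler differed: none was highest in WT replicate 3, where their median ratio was 1.03. All 5 lay above their mean in cKO replicate 1 (median ratio 1.10) and in cKO replicate 4 (1.12). The 13 Cfap genes without a role were closer to level, with median ratios of 1.02 in WT replicate 3 and 1.05 in cKO replicate 4. With a mean of at least 50 required, 59 genes were left, of which 22 were highest in WT replicate 3 and 17 in cKO replicate 4.

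**Figure D4:**
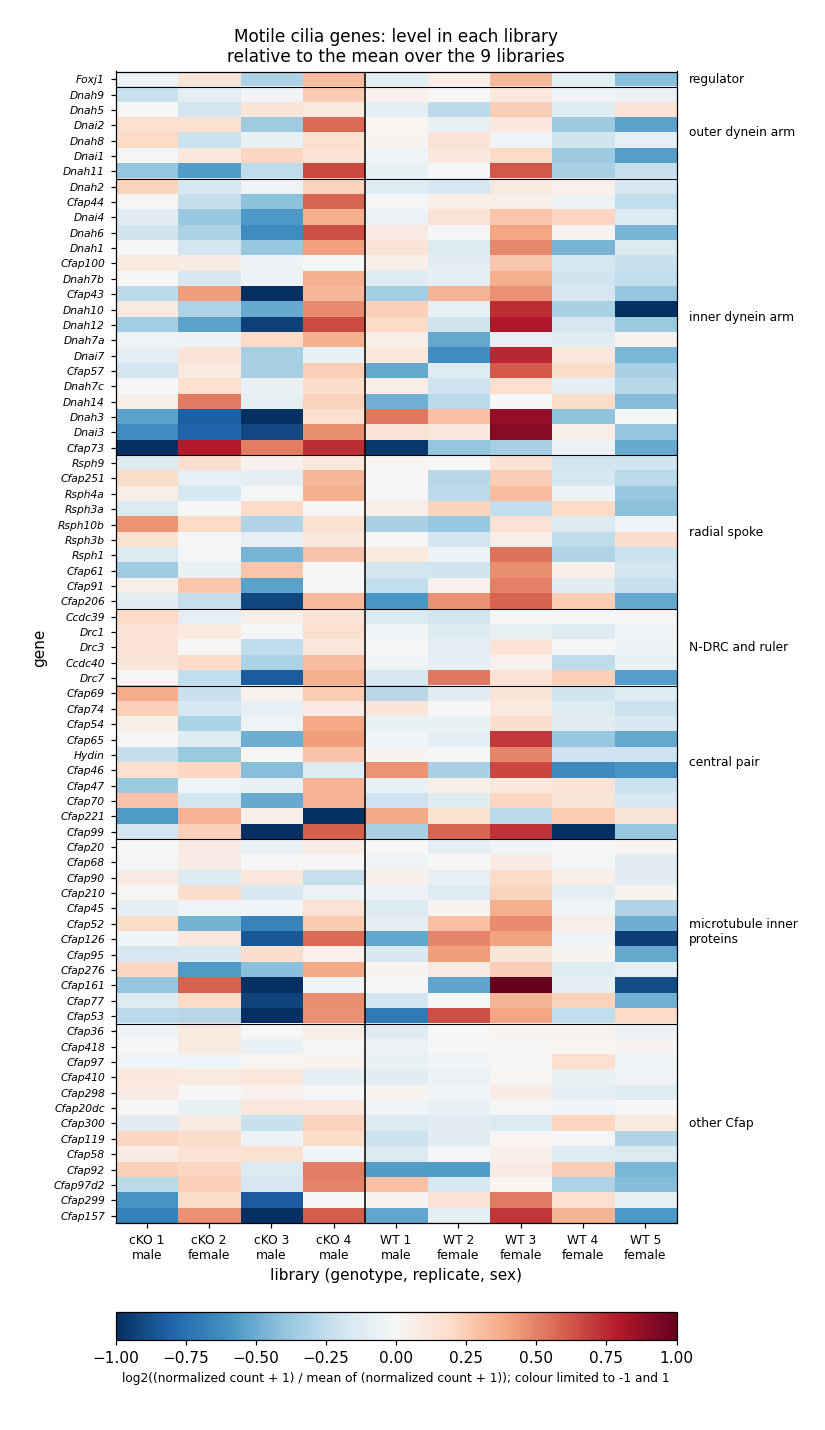
Level of each of the 75 genes (rows, grouped by role) in each library (columns) as log2 of (normalized count + 1) over its mean, blue below and red above the mean, with colour limited to -1 and 1. The columns of cKO replicate 4 and WT replicate 3 are mostly red and those of cKO replicate 3 and WT replicate 5 mostly blue, and Cfap36, Cfap418 and Cfap20 stay near white.

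Ciliary genes outside the rule shared this pattern in part. Of 23 ependymal cell markers tested and not among the 75, 14 were highest in WT replicate 3 and 4 in cKO replicate 4. Their median ratio was 1.45 in WT replicate 3, 1.18 in cKO replicate 4, 0.730 in cKO replicate 3 and 0.786 in WT replicate 5. Of 41 axoneme genes outside the rule, such as tektins and sperm-associated antigens, 18 were highest in WT replicate 3 and 14 lowest in WT replicate 5. Of 20 genes for dynein arm assembly and docking, 6 were highest in cKO replicate 4 and 4 in WT replicate 3, but 5 were lowest in WT replicate 4, 4 each in WT replicates 1 and 5 and 3 in cKO replicate 3. The 9 genes of the multiciliation programme had their highest median ratio in cKO replicate 2 (1.11), against 1.05 in cKO replicate 4 and 1.02 in WT replicate 3. By contrast, the 44 genes of intraflagellar transport and the BBSome, which serve non-motile cilia as well, kept median ratios between 0.981 and 1.02 in all 9 libraries. For 10 neuronal genes the median ratio lay between 0.956 and 1.05.

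Markers of tissues next to the ependyma also differed between libraries. The 9 choroid plexus markers, among them Ttr, which encodes transthyretin, summed to 23623, 3354, 601 and 33744 normalized counts in cKO replicates 1 to 4. In WT replicates 1 to 5 they summed to 610, 44654, 10191, 25811 and 2909. Ttr alone gave 21539 of the 23623 in cKO replicate 1 and 211 of the 601 in cKO replicate 3. Choroid plexus epithelium carries cilia too. The sum was low in cKO replicate 3 and WT replicate 5, where motile cilia genes were low, and high in cKO replicate 4. It was also low in WT replicate 1 and cKO replicate 2, where the 75 genes had median ratios of 0.972 and 0.994. The sum was highest in WT replicate 2, in which the 75 genes had a median ratio of 0.955. WT replicate 3 had a smaller sum than WT replicate 4 and cKO replicate 1. The 6 meningeal fibroblast markers summed to 7395 to 8842 in cKO and 5259 to 8831 in WT. The 9 ependymal markers, with Foxj1 among them, summed to 864, 1027, 683 and 1123 in cKO and 881, 971, 1323, 818 and 712 in WT. cKO replicate 4 had the most reads (34034530), cKO replicate 3 had 33435479, WT replicate 3 had 33134405 and WT replicate 5 the fewest (30803135). The part of these tissues, of dissection and of depth in the levels of the motile cilia genes was not tested.

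By coefficient of variation, motile cilia genes spread more between animals than genes of like abundance at means of 50 to 300 normalized counts. Elsewhere their spread by this measure was close to that of such genes. Their median coefficient of variation over the 9 libraries was 18.3%, against 7.95% for all genes tested, which are more abundant. At means of 100 to 300 normalized counts it was 17.0% for 23 motile cilia genes and 11.3% for 2304 genes in all, and at 50 to 100 it was 23.0% for 20 and 16.9% for 1200. From 300 to 1000 it was 7.67% for 13 and 7.04% for 3849, and from 10 to 50 it was 29.1% for 16 and 27.8% for 3123. In this lowest range the median variance over mean was 2.25 against 1.59, so by that measure the motile cilia genes spread more there too. The highest library exceeded the lowest by a factor of at least 2 in 28 of the 75 genes. Among the least variable were Cfap418 (3.15%), Cfap68 (3.88%), Cfap20 (3.95%) and Cfap36 (4.70%). Dnah12 (41.7%), Dnah10 (37.8%) and Hydin (20.1%) varied more, at lower means. The 17 genes with X-box letters had a median of 13.5% and the 44 without 17.6%. These sets were not matched by mean, with which this measure changes, and the difference was not tested.

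**Figure D5:**
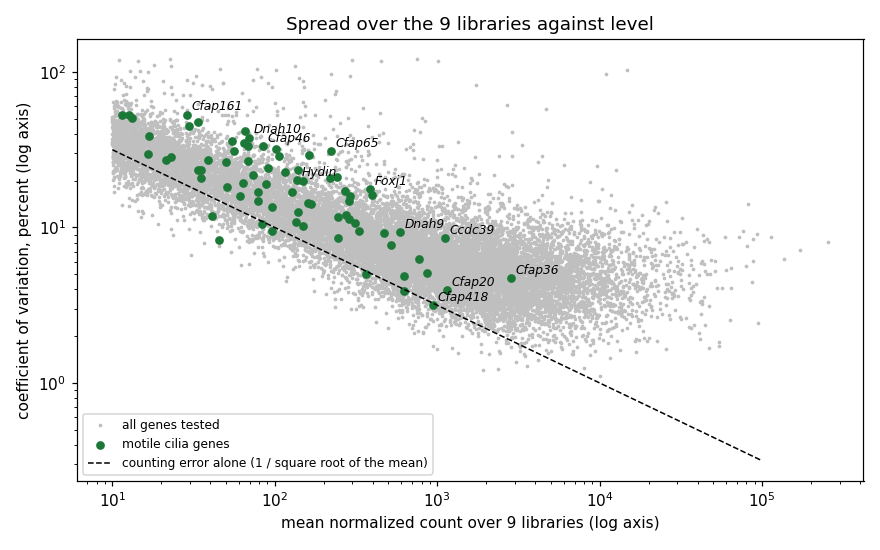
Coefficient of variation over the 9 libraries in percent (vertical log axis) against the mean normalized count (horizontal log axis) for all 17036 genes tested (grey) and the 75 motile cilia genes (green); the dashed line is the spread from counting alone. Cfap418 and Cfap20 lie low in the cloud at 3.15% and 3.95%, and Cfap161, Dnah10 and Cfap65 lie high at 52.8%, 37.8% and 30.8%.

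Sex was compared in the same fit. Of the 75 genes 0 passed in limma for male against female, against 0.0528% of all genes. At an unadjusted p under 0.05 there was 1 (1.33%), against 6.73% of all. That gene was Cfap36, lower in males by a log2 difference of -0.11 (SE 0.05, unadjusted p = 0.0370, adjusted p = 0.738 in limma). For the interaction of sex and genotype, 0 of 75 passed, against 0.00587% of all genes, and 2 had an unadjusted p under 0.05 (2.67%), against 7.9% of all. These were Cfap69 (unadjusted p = 0.00842, adjusted p = 0.570 in limma) and Ccdc39 (unadjusted p = 0.0394, adjusted p = 0.614 in limma), and the term rests on 1 cKO female and 1 WT male.

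In other gene lists of this tissue, 0 genes passed for genotype among the 23 ependymal markers, the 46 listed axoneme genes, the 20 assembly and docking genes and the 44 transport genes. Of those 46, 5 are among the 75. The same held for 9 genes of the multiciliation programme, 22 choroid plexus, 15 meningeal, 10 neuronal and 14 subventricular zone genes. Rfx3, an X-box binding factor, averaged 3042 ± 350.2 (SD, n = 4) in cKO against 3091 ± 232.4 (SD, n = 5) in WT. Only the astrocyte list held genes that passed, 4 of 12, against 0.346% of all genes tested. All 10 lists were chosen with earlier results of these data known, so this contrast between lists is a description. Ndrg2, S100b and Gfap rose, by log2 differences of 0.32, 0.35 and 0.29 (adjusted p = 0.0037, 0.0141 and 0.0420 in limma). Aqp4, the water channel of astrocyte endfeet, fell by 0.35 on the log2 scale (adjusted p = 0.00206 in limma). Median log2 differences were -0.04 for ependymal markers, 0.03 for axoneme genes, 0.03 for assembly genes and 0.03 for transport genes. They were 0.19 for choroid plexus, 0.26 for meningeal and 0.08 for astrocyte genes, against -0.0034 for all genes tested.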

How the data were processed

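The deposited table gives 1 signal value for each gene in each library, and the values show that the authors divided gene counts by a size factor per library. The submitters' processing notes name STAR 2.7.10b, cutadapt 4.4, FastQC 0.12.1 and DESeq2 1.41.8 with the GRCm39 build. Read counter, annotation release and strand setting were not given in the sources used here. Whole reads, recovered within 0.1 read for 100% of values above 0, went into edgeR 4.0.16 (57 genes called) and DESeq2 1.42.0 (200 called). The test of all results was limma-trend with sex as a term on log2(normalized count + 1), in limma 3.58.1 under R 4.3.3, over 17036 genes with a mean of at least 10 and an adjusted p under 0.05, checked on simulated data. Alternatives were other pseudocounts, filters, scaling, tools and terms, each sex alone, and each library left out. Tables were read with Python 3.11.15.

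The p-values set a difference against the spread between these animals, each taken as independent. Litters are not named in the labels, so that independence could not be checked. The motile cilia genes and all 10 lists were chosen with earlier results of these data known. Of 228 list entries 8 matched by an older symbol and 4 did not match. Fold changes are given for Foxj1, Hydin, Ccdc39, Ccdc40, Drc1, and the 5 higher and 5 lower genes of smallest p. The naming rule also took the 3 genes of highest mean in each role or list and list genes that passed, and of the lists only those a result turned on are printed. Other genes were named after their values were seen.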

Additional observations from a re-analysis of the deposited data

Results flagged for a closer look

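In each genotype the highest or lowest library of every motile cilia gene was set against the others by Dixon's criterion, and 9 of 150 groups held a library far from the rest, where chance gives about 1 in 20. In WT replicate 3 the highest value stood apart for Cfap54 (322.73 normalized counts, the next 272.25), Hydin (192.66, the next 139.61), Dnah7b (165.28, the next 120.48) and Dnah11 (105.62, the next 68.55). In cKO replicate 4 Dnai3 stood above the rest of its group (41.49, the next 18.89) and Cfap410 below it (724.17, the next 822.58). The others were Cfap68 in cKO replicate 2 (657.08, the next 623.28), Cfap97 in WT replicate 4 (968.93, the next 855.73) and Cfap119 in cKO replicate 3, which was lowest (134.49, the next 158.41).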

How the results depend on the processing

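The count of 0 motile cilia genes called for genotype held under pseudocounts of 0.5 and 5, no filter, a mean of at least 50, TMM scaling, no sex term, robust limma, edgeR, DESeq2 (which gives no adjusted p for some low genes, Dnah3 among them) and each library left out. It was 0 as well in females only and males only, but these have 1 cKO female and 1 WT male, whose spread is assumed to equal that of the others. The same holds without cKO replicate 2 or WT replicate 1, so 0 there says little on stability. It also held without WT replicate 3 and cKO replicate 4 together, and without cKO replicate 3 and WT replicate 5 together, 2 alternatives added after seeing the data. The count at an unadjusted p under 0.05, 8 of 75, was 4 with a mean of at least 50 or no sex term, 3 in females, 2 in males, 5 in DESeq2, 5 without cKO replicate 1 or WT replicate 2, 2 without cKO replicate 2 and 0 without WT replicate 1. Over all genes, 59 calls became 216 with no sex term, 11 in females, 3 in males and 200 in DESeq2. They became 28, 10, 21, 29 and 30 without cKO replicates 1 and 2 and WT replicates 1, 2 and 5, and 26 without cKO replicate 3 and WT replicate 5. Ccdc39 reversed to -0.0288 in females and Cfap276 to 0.0299 in males. With each library left out, Hydin ranged from -0.3882 to -0.0060, Dnai4 from -0.5027 to -0.0487, Dnai3 from -0.9758 to -0.4951, Dnah12 from -0.6822 to -0.3216, Ccdc40 from 0.0761 to 0.2932, Foxj1 from 0.0590 to 0.1984, Ccdc39 ranged from -0.0288 to 0.2621, Cfap276 from -0.5958 to 0.0299, and the Foxj1 permutation difference from -0.0281 to 0.1764. The cause was not tested. With TMM scaling the median log2 difference of all genes tested was 0.0015, against -0.0034 in the main fit. No paired analysis was possible because the labels give no replicate numbers that groups share. With 4 and 5 animals of uneven sex, and counts near 10 in the lowest genes, real differences may have gone uncalled. The printed intervals give the differences compatible with the data and are not limits of detection.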
